A study of Mus musculus with 144 samples.

Results

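Brown adipose tissue (BAT, brown fat) was compared between the fed and the fasted hours of mice that received their food only in the first 6 h of the day. The fed group held the 4 libraries of circadian times CT04, CT08, CT28 and CT32, and the fasted group the 4 libraries of CT16, CT20, CT40 and CT44, so that 8 of the 144 samples of the series (24 of them brown fat) carry the comparison. Members were chosen by their labelled time alone, which is hour 4 or 8 of the day for the fed group and hour 16 or 20 for the fasted group, each once on both sampling days. All mice were male wild-type C57BL/6J, 6 months old, housed singly with running wheels, and each library came from 1 mouse. Both groups belonged to the CR-day-6h regimen, in which a daily ration of 70% of baseline intake was delivered as pellets over a 6 h window at the start of the light phase for 10 weeks. The restriction in amount is therefore shared by the fed and the fasted group. Brown fat of mice with food at all hours (AL), sampled at the same times, and liver of CR-day mice served for contrast. Sampling took place in constant darkness, and the labels used here do not say whether food was still delivered then, so fed and fasted name hours of the schedule. CT04 and CT28 fall inside the delivery window, and CT08 and CT32 after it closed. Within CR-day the fed and the fasted hours are also different times of day, so feeding and time of day cannot be told apart.

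Brown fat takes up fatty acids and glucose from blood, stores them as small lipid droplets and burns them in mitochondria that Ucp1 uncouples for heat. After a meal, insulin favours glucose use, lipid synthesis and uptake of lipoprotein fat. In fasting, stored and circulating fatty acids become the main fuel, and nuclear receptors of the PPAR family and FOXO factors are known to switch on genes that spare glucose and oxidise fat.

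The 8 libraries held between 8446094 and 11607273 reads on genes (median 10118583), and 55.8% to 66.2% of reads lay on mitochondrial transcripts. That share was 63.1%, 62.1%, 63.9% and 62.7% in the fed libraries and 66.2%, 56.7%, 55.8% and 56.9% in the fasted ones, in the order of times given above, which holds for all values listed per group. CT16 was the highest of all 8, and the groups overlapped (mean 63.0% ± 0.755 against 58.9% ± 4.86, SD, n = 4 each, p = 0.143, exact permutation test, two-sided, for which 0.0286 is the smallest p with 4 against 4). Ucp1 and the 11 other brown adipocyte markers were all present, with a summed level of 8984 to 10295 CPM (counts scaled to library size, with TMM factors) in fed and 7305 to 9386 CPM in fasted libraries.

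Clock genes were used to read the time of each library, by fitting 24 h cosine curves to the other CR-day libraries. CT32 read 6.5 h before its label, the largest gap of the 11 CR-day libraries with counts. The other 10 read between 0.5 and 4 h off, among them CT28 at 4 h and CT16 at 3 h later than labelled, and CT40 at 3.5 h earlier. In AL brown fat no library read more than 1.5 h off. The CR-day readings rested on 7 to 12 clock genes each and the AL readings on 15 to 17. Each CR-day library was also read against CR-day libraries that stood off their own labels. CT32 is kept under its label below.

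Fed and fasted hours differed in 540 of 11105 genes tested (4.86%), at an adjusted p under 0.05. Adjusted p-values here and below come from the quasi-likelihood test of edgeR, adjusted by Benjamini and Hochberg's method over every gene tested. Of these, 310 were higher (2.79%) and 230 lower (2.07%) in the fed hours, and 250 changed at least 2-fold. In 497 of the 540 no fed library overlapped a fasted one, while groups did not overlap in 12.6% of all genes tested, with fed libraries above in 6.83% and below in 5.75%. The median log2 difference over all genes was -0.01. Without CT32, 256 genes passed (2.27%), 240 of them among the 540, and all 540 kept their direction. Leaving out CT04, CT08, CT28, CT20, CT40 or CT44 left 420, 158, 230, 161, 267 and 212 calls. CT16 lay nearest to the fed side among the fasted libraries for 152 of the 310 risers and 130 of the 230 falls. How often it did so over all genes tested was not counted. Without CT16 1580 genes passed (14%), 539 of them among the 540, and without both CT16 and CT32 1028 passed (9.10%). With 1 mouse per library, these p-values measure the spread between single mice of different hours and days.

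The largest rises in the fed hours belonged to a hormone, a lipid enzyme and genes of several other roles. Lep, which encodes the satiety hormone leptin (chr6:29060220-29073877, plus strand, in the mm10 annotation), stood at 109.8, 62, 59.7 and 54.8 CPM in the fed libraries and 9.78, 13, 10.5 and 9.15 CPM in the fasted ones. The fed libraries were all far above the fasted ones, and CT04 was the highest. Its log2 difference was 2.74 ± 0.23 (SE; adjusted p = 1.46e-04, and 1.76e-04 without CT32). Hephl1, a copper-dependent ferroxidase, stood at 21.5, 23.1, 12.9 and 34.1 CPM against 3.67, 1.94, 3.96 and 2.21 CPM, a log2 difference of 2.96 ± 0.31 (adjusted p = 3.26e-04). Pnpla3, a lipid droplet hydrolase that insulin is known to induce in liver, stood at 1039, 1064, 1301 and 703 CPM in fed and 249, 244, 325 and 243 CPM in fasted hours. CT32 was the lowest fed library and still lay above all fasted ones (log2 difference 1.95 ± 0.20, adjusted p = 3.26e-04).

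The other 9 of the 12 largest rises had varied roles. The transcription factor gene Gata6 rose by 3.09 on the log2 scale, with 3.56, 17.6, 4.43 and 7.11 CPM in fed libraries, where CT08 stood above the rest, and 1.00, 1.34, 0.808 and 0.631 CPM in fasted ones. Sucnr1, the receptor for succinate, had 12.5, 7.01, 5.31 and 3.45 CPM against 1.00, 0.968, 1.45 and 1.58 CPM. Pgm3, an enzyme of the hexosamine pathway that makes the sugar donor for protein glycosylation, had 9.17, 7.82, 13.5 and 6.67 CPM against 1.11, 2.68, 2.02 and 2.10 CPM. The proteoglycan gene Ncan rose by 2.52, the centriole gene Hyls1 by 2.27, Nav3, which codes for a microtubule-binding protein, by 2.02, and Fam186a by 1.76. Pmepa1, a brake on TGF-beta signalling, rose by 1.74 and the adhesion gene Clmp by 1.68. All 12 passed the threshold in each of the 8 fits that left out 1 library.

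**Figure D1:**
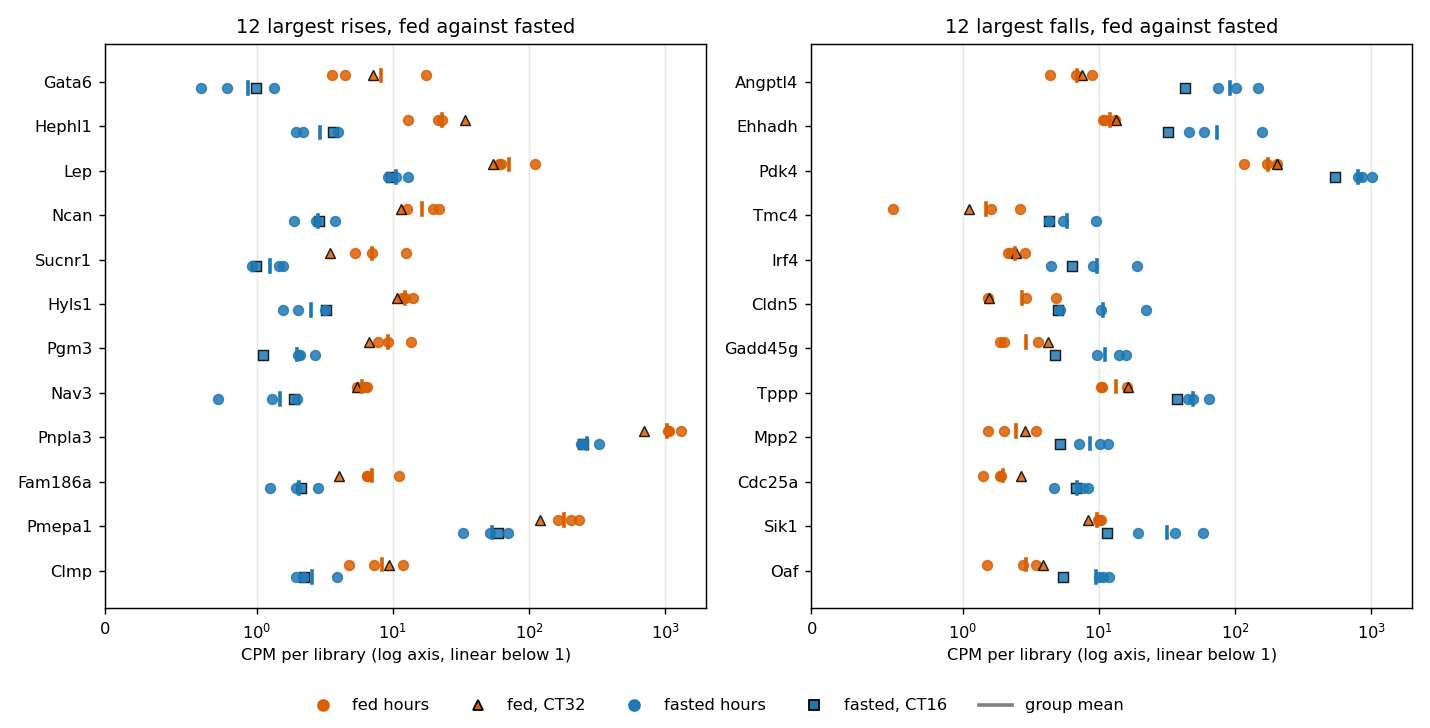
CPM in each library (log axis, linear below 1) for the 12 largest rises and the 12 largest falls, with fed libraries in orange, fasted libraries in blue, CT32 as triangles, CT16 as squares and group means as vertical lines. For every gene shown the fed and fasted points do not overlap, which was a condition for showing it, and on the log axis Angptl4 has the widest gap between the group means.

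The largest falls in the fed hours were led by genes of the fasting fuel switch. Angptl4, a secreted inhibitor of lipoprotein lipase that limits uptake of blood fat, stood at 8.95, 4.40, 6.83 and 7.56 CPM in fed and 43, 147, 74.7 and 102 CPM in fasted libraries. CT20 was the highest and CT16 the lowest of the fasted libraries, and all 4 exceeded every fed one (log2 difference -3.74 ± 0.35, adjusted p = 2.18e-04). Pdk4, the kinase that shuts off pyruvate dehydrogenase and so spares glucose (chr6:5483351-5496309, minus strand, in the same annotation), had 170.3, 116, 204 and 203 CPM against 537, 1001, 859 and 798 CPM. It was the most abundant of the 12 falls, with CT16 again lowest among the fasted libraries (log2 difference -2.21 ± 0.23, adjusted p = 3.26e-04). Ehhadh, the bifunctional enzyme of peroxisomal fatty acid oxidation, had 13.1, 10.8, 11 and 13.3 CPM against 32.1, 59.3, 45.9 and 158 CPM, with CT44 well above the other fasted libraries (log2 difference -2.63 ± 0.40, adjusted p = 0.00391).

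The rest of the 12 falls held a cytoskeletal gene, a transcription factor and kinase genes, among others. Tppp, which promotes tubulin assembly, stood at 10.6, 10.4, 16.2 and 16.4 CPM against 37.6, 49, 64.1 and 45 CPM, with no overlap (log2 difference -1.88 ± 0.21, adjusted p = 5.47e-04). Irf4, a transcription factor known as fasting-induced in adipose tissue, stood at 2.16, 2.87, 2.28 and 2.44 CPM against 6.33, 9.01, 19.1 and 4.42 CPM. Sik1, a kinase that restrains cAMP-driven transcription, had 9.92, 10.1, 10.4 and 8.33 CPM against 11.6, 36.3, 58.2 and 19.3 CPM, so that all fasted libraries lay above the fed range, CT16 by the least. Gadd45g, a stress-response gene, fell by 1.94, the cell cycle phosphatase gene Cdc25a by 1.81, the channel-like gene Tmc4 by 2.05, the scaffold gene Mpp2 by 1.81 and Oaf by 1.70 on the log2 scale. Cldn5, a tight junction gene of endothelium, fell by 2.00. Of the 12 falls, 9 passed in each leave-one-out fit, and Tmc4, Cldn5 and Sik1 did not.

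Gene lists were read by how many of their tested members passed in each direction, beside the 2.79% higher and 2.07% lower among all genes. Of all 11105 genes tested, 2610 had an unadjusted p under 0.05. DESeq2 called 521 of 11296 genes higher and 417 lower. Without CT16, 803 of 11267 genes were called higher and 777 lower, and without CT32, 159 of 11288 higher and 97 lower. List counts in these settings are to be set beside these numbers. Of 18 fasting and insulin-repressed genes, 6 fell and 1 rose in the fed hours, and the median log2 difference of the list was -0.43. Besides Angptl4 and Pdk4, Fbxo21, a ubiquitin ligase subunit, stood at 18.7, 18.5, 17 and 16 CPM against 24.3, 63.1, 46.1 and 60.9 CPM. Txnip, which restrains glucose uptake, stood at 142, 136, 187 and 97.8 CPM against 210.3, 527, 337 and 576 CPM. Neither gene overlapped between the groups, and both passed in all 8 leave-one-out fits (adjusted p = 0.00676 and 0.0104). Irs2, the insulin receptor substrate that insulin itself represses, had 7.66, 2.87, 2.91 and 3.11 CPM against 5.67, 28.7, 27.2 and 13.7 CPM. CT16 lay inside the fed range, and the call (log2 difference -2.20 ± 0.45, adjusted p = 0.0189) was kept in 3 of 8 leave-one-out fits. Pck1, the enzyme of glyceroneogenesis in fat, fell by 1.40 (adjusted p = 0.0326), a call kept in 3 of 8 such fits. The member that rose was Ppargc1a. Without CT32 the list held 4 falls and 1 rise.

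Genes for fat uptake moved in both directions. Of 17 members, 4 fell and 1 rose, with a median of -0.12, and without CT32 2 fell and 1 rose. The riser was Angptl8, a partner of the lipase inhibitors that feeding is known to raise, at 26.5, 19.6, 25 and 30.2 CPM against 7.44, 10.3, 8.32 and 7.15 CPM (log2 difference 1.59 ± 0.19, adjusted p = 7.98e-04). It moved in the opposite direction to its relative Angptl4, with no overlap between groups. Gpihbp1, which anchors lipoprotein lipase on capillaries, stood at 12.5, 16.9, 10.4 and 9.22 CPM against 21.9, 30.9, 22.1 and 30.0 CPM and fell by 1.10 (adjusted p = 0.0114). The lipoprotein receptor gene Lrp1 fell by 0.96 and the fatty acid transporter gene Slc27a4 by 1.00, with adjusted p of 0.0426 and 0.0461, and neither passed without CT32.

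Fat oxidation changed in the peroxisomal list. Of 19 peroxisomal genes 4 fell and 1 rose, with a median of -0.24. Besides Ehhadh these included the thioesterase gene Acot8 (fell by 1.31), the thiolase gene Acaa1a (fell by 0.80) and Pex11a, a peroxisome division gene, which rose by 0.78. Without CT08, CT20 or CT44 1 member fell and none rose. Of 24 mitochondrial fatty acid oxidation genes none passed by edgeR, 4 had an unadjusted p under 0.05, and DESeq2 called 2 lower. Without CT16 2 members fell, beside 777 of 11267 over all genes, and without CT32 1 did, beside 97 of 11288. Ucp3, an uncoupling protein homologue, came nearest with 50.2, 41.7, 42.9 and 66.7 CPM against 86.3, 64.2, 70.4 and 113 CPM (adjusted p = 0.0546). None of 16 lipolysis and lipid droplet genes passed by edgeR, 3 had an unadjusted p under 0.05, and DESeq2 called 1. Without CT16 2 members fell, again beside 777 of 11267 over all genes. Lipe, the hormone-sensitive lipase, had 257, 213, 245 and 193 CPM against 206, 451, 425 and 533 CPM, with CT16 inside the fed range (adjusted p = 0.0618).

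Several genes of cholesterol synthesis and uptake were higher in the fed hours. Of 24 members tested 10 rose in the fed hours and none fell, with a median log2 difference of 0.28. DESeq2 also called 10 higher and none lower, and 15 members had an unadjusted p under 0.05 by edgeR. Cyp51, the sterol demethylase, stood at 71.7, 84.8, 71.2 and 94.5 CPM in fed and 32.1, 24.9, 37.6 and 18.3 CPM in fasted libraries, with CT32 the highest of all (log2 difference 1.51 ± 0.20, adjusted p = 0.00222). Sc5d, a late desaturase of the pathway, stood at 174, 201, 138 and 232 CPM against 79, 50.3, 80.0 and 41 CPM (log2 difference 1.57 ± 0.23, adjusted p = 0.00255). Neither gene overlapped between groups.

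Other risers included genes from the entry of the pathway onward. Hmgcs1, at the start of sterol synthesis, rose by 0.83, Mvd by 1.29, Msmo1 by 1.35 and Hsd17b7 by 1.61 on the log2 scale. Insig1, which holds the SREBP factors back in the endoplasmic reticulum, stood at 339.8, 569.7, 447 and 588 CPM against 200.1, 189, 271 and 109 CPM. Every fed library was above every fasted one (log2 difference 1.33 ± 0.25, adjusted p = 0.0112). Stard4, a sterol carrier, rose by 0.96. Without CT32, CT08, CT28 or CT20 6 members passed, without CT44 5, and in each case none fell.

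Promoters of these risers are shown because the genes moved together and the pathway is known to answer to SREBP factors. RefSeq promoters on build GRCm38.p6, from 250 bases before to 50 after the start, were at hand for 7 of the 10. The SREBP element TCACNCCAC, searched on both strands, was in 1 of the 7 and in 1.24% of all 32851 promoters of the table. The E-box CACGTG, which reads alike on both strands, was in 3 of the 7 and in 7.15% of all promoters. CCAAT, searched on both strands, was in all 7 and in 37.4% of all promoters. Among the 8617 genes tested that had a promoter the shares were 1.40%, 12.1% and 42.9%. In the whole cholesterol list, called or not, 17 members tested had a promoter. The SREBP element was in 1 of these 17, the E-box in 4 and CCAAT in 16, so CCAAT was not particular to the risers. A match describes these letters in this window and is not a measured site. The 4 promoters with an SREBP element or E-box follow 5′ to 3′ on the gene's strand, with that match in capitals. Hmgcs1, Insig1 and Hsd17b7 are shown by choice after their values were seen.
Hmgcs1 (chr13:119690101-119690400, plus strand, SREBP element): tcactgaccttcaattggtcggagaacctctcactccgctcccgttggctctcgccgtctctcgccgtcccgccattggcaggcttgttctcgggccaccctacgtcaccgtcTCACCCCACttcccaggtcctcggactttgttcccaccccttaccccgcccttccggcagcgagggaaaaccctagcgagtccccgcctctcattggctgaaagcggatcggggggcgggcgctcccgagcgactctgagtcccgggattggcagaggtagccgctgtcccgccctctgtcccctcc
Insig1 (chr5:28071162-28071461, plus strand, E-box): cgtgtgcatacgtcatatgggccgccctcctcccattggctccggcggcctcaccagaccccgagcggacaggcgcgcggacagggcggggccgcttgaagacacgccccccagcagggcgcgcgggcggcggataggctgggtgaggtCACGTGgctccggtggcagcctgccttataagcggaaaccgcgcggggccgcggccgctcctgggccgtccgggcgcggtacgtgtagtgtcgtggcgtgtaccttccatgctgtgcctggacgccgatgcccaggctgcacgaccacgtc
Hsd17b7 (chr1:169969156-169969455, minus strand, E-box): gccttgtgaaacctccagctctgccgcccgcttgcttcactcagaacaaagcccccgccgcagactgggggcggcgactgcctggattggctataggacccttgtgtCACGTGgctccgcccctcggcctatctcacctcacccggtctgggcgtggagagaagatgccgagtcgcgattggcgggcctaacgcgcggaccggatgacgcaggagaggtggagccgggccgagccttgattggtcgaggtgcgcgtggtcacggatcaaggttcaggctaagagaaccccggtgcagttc
Sc5d (chr9:42264251-42264550, minus strand, E-box): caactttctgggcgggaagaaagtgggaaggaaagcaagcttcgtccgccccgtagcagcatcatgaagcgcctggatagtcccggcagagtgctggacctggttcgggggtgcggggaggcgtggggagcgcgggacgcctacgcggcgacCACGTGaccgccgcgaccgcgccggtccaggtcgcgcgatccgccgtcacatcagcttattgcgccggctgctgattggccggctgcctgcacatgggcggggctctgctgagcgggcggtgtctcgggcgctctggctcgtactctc
The first of these held the SREBP element 137 bases before the start, and the E-boxes of Insig1, Hsd17b7 and Sc5d began 101, 143 and 98 bases before it.

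Of 24 fatty acid synthesis genes 2 rose and 1 fell, with a median of -0.07. Besides Pnpla3, Mid1ip1, which activates acetyl-CoA carboxylase, rose from 17.9, 29.5, 23.5 and 12.2 CPM in fasted to 64, 51.6, 58.1 and 46.9 CPM in fed libraries (log2 difference 1.39 ± 0.23, adjusted p = 0.00553). Acacb, the carboxylase isoform that curbs entry of fat into mitochondria, fell by 0.66 (adjusted p = 0.0485), kept in 1 of 8 leave-one-out fits. Of 14 triglyceride synthesis genes only Lpin1, a phosphatidate phosphatase, passed, at 449, 411, 477 and 444 CPM against 309.5, 222, 327 and 175 CPM (log2 difference 0.78 ± 0.19, adjusted p = 0.0372, kept in 2 of 8 leave-one-out fits).

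Carbohydrate genes also split. Ppp1r3b, which brings a phosphatase to glycogen and so favours its synthesis, was the one call among 21 glycogen genes. It stood at 511, 384, 559 and 435 CPM against 157, 181, 249 and 158 CPM, with no overlap (log2 difference 1.33 ± 0.19, adjusted p = 0.00255). Of 27 glucose uptake and glycolysis genes, 1 rose and 2 fell, with a median of -0.41, 15 had an unadjusted p under 0.05, and DESeq2 called 2 higher and 7 lower. Hk2, the insulin-induced hexokinase, rose by 0.82, while Pfkfb3 and Pfkl, which drive the phosphofructokinase step, fell by 0.95 and 1.01 (adjusted p = 0.0315, 0.0249 and 0.0393). Without CT16 the same list had 2 rises and 9 falls, and without CT32 no rise and 1 fall. Slc2a4, the insulin-responsive glucose transporter, had 325, 306, 286 and 267 CPM against 216, 187, 219 and 207 CPM, without overlap, and did not pass (adjusted p = 0.0555).

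Among 15 adipokine and hormone genes 2 rose, Lep and Fgf1, and the median was 0.39. Fgf1, a growth factor that feeding is known to induce in white fat, stood at 44.8, 48.4, 39.7 and 47.6 CPM against 31.2, 20.5, 29.5 and 13 CPM (adjusted p = 0.0327, kept in 2 of 8 leave-one-out fits). Of 28 thermogenesis genes 2 rose and none fell, with a median of 0.08. Ppargc1a, the coactivator of mitochondrial biogenesis, stood at 49.1, 57.5, 42.6 and 43.2 CPM against 35.2, 23.2, 24.6 and 19.9 CPM, with no overlap (log2 difference 0.90 ± 0.18, adjusted p = 0.0169, kept in 5 of 8 leave-one-out fits). Ebf2, a brown adipocyte identity factor, rose by 0.72, with CT32 just below CT16 (adjusted p = 0.043, kept in 2 of 8 such fits). Ucp1 itself stood at 2362, 1342, 2475 and 2180.5 CPM in fed and 1393, 821, 1799 and 1408 CPM in fasted libraries. CT04, CT28 and CT32 exceeded all fasted libraries but CT08 fell among them, and the difference of 0.62 ± 0.25 did not pass (adjusted p = 0.161).

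Clock genes were read between these groups, each of which joins a pair of clock hours. Of 18 core clock genes tested 3 rose and none fell, beside 2.79% higher and 2.07% lower among all genes, with a median of 0.22. Bhlhe40, a repressor that answers to both clock and metabolic signals, stood at 103, 95.1, 93.4 and 84.2 CPM against 29.7, 28.4, 49.5 and 44.3 CPM (log2 difference 1.30 ± 0.19, adjusted p = 0.00255, and 0.00524 without CT32). Its relative Bhlhe41 stood at 28.9, 40.3, 31.5 and 35.5 CPM against 14.8, 14.1, 24.9 and 12.8 CPM, also without overlap (log2 difference 1.02 ± 0.21, adjusted p = 0.0167). The activator Arntl had 8.31, 3.77, 8.10 and 10.2 CPM against 1.56, 3.72, 1.29 and 4.10 CPM. CT08 lay inside its fasted range, and the call (adjusted p = 0.0436) was lost without CT32 (adjusted p = 0.105) and kept in 3 of 8 leave-one-out fits. The repressor genes Per1, Per2, Per3, Cry1 and Cry2 differed by -1.18, 0.03, 0.26, -0.04 and 0.00, and Nr1d1 and Nr1d2 by 1.14 and 0.71, with no call among them. The output genes Dbp, Tef, Hlf, Nfil3 and Ciart differed by -0.33, -0.29, 0.54, 0.46 and -0.01, and Clock and Rora by 0.22 and 0.23, again with no call. Npas2 did not pass the filter on low counts.

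**Figure D2:**
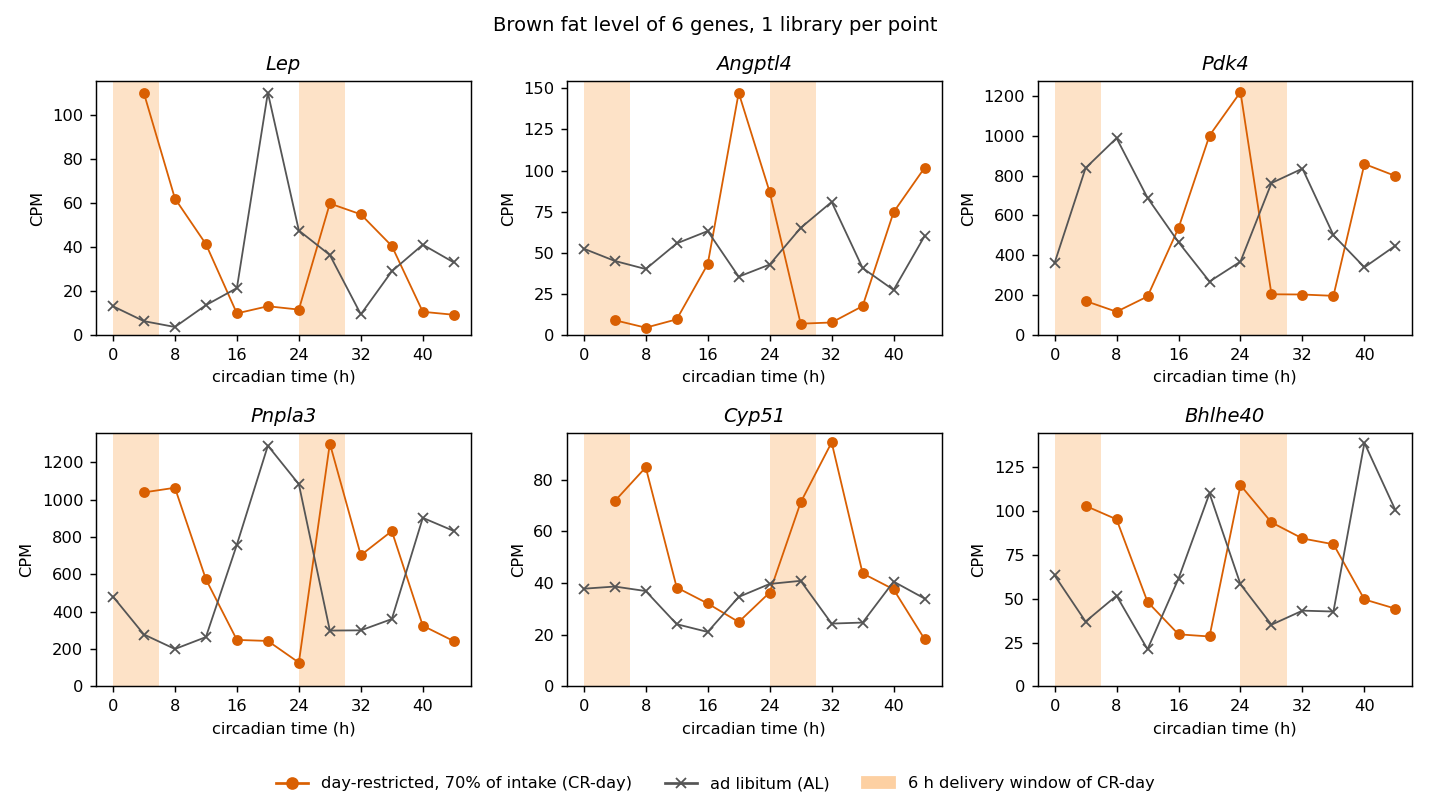
CPM against circadian time in hours for 6 genes in brown fat, 1 library per point, with CR-day in orange and AL in grey and the 6 h delivery window of the CR-day schedule shaded. Lep, Pnpla3, Cyp51 and Bhlhe40 are high in CR-day brown fat during and after the window and low at CT16, CT20, CT40 and CT44, and Angptl4 and Pdk4 show the opposite course.

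Genes of acute responses moved both ways. Of 16 glucocorticoid-responsive genes 2 rose and 2 fell, with a median of -0.33. Dusp1, a phosphatase that switches off MAP kinases, stood at 25.7, 27.7, 21.3 and 17.9 CPM against 6.56, 10.3, 11.4 and 9.15 CPM (log2 difference 1.29 ± 0.20, adjusted p = 0.00455), while Sgk1, a kinase of ion transport, stood at 17, 12.8, 11.6 and 16.7 CPM against 31.9, 41.6, 31.7 and 21.3 CPM (log2 difference -1.13 ± 0.21, adjusted p = 0.0103). Neither overlapped, and they changed in opposite directions. Errfi1, an inhibitor of the EGF receptor, fell by 0.95, a call kept in 4 of 8 leave-one-out fits, and Lpin1 is a member too. Without CT32 1 member rose and 1 fell. Of 20 immediate early genes 2 rose and 2 fell, with a median of -0.01. The AP-1 genes Jun and Fosl2 rose by 1.18 and 0.82, Klf4 fell by 1.40 and Nr4a1 by 2.68 (adjusted p = 0.0199, 0.0428, 0.0216 and 0.0483). Nr4a1 had 2.16, 0.988, 1.01 and 0.556 CPM in fed and 1.11, 13, 13.9 and 1.68 CPM in fasted libraries, so that CT20 and CT40 alone stood above the fed range. Klf4 was highest at CT16 and CT20. Without CT08 or CT28 no member of the immediate early list passed, and without CT32 Jun alone did.

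Genes of protein folding, the integrated stress response and ribosome biogenesis were read next. Of 18 heat shock chaperones 2 rose, with a median of -0.20, and Hspa8, the constitutive cytosolic HSP70, stood at 422, 426, 549.7 and 555 CPM against 170.0, 280.4, 252 and 134 CPM (log2 difference 1.22 ± 0.22, adjusted p = 0.0104). Its cochaperone gene Dnajb4 rose by 0.63, a call kept in 1 of 8 leave-one-out fits. Without CT32 1 member of this list rose, and without CT16 5 did. Of 19 endoplasmic reticulum chaperone genes Pdia3 rose by 0.52 and Hyou1 fell by 0.61, with a median of 0.00. These calls were kept in 1 and 3 of 8 leave-one-out fits, and without CT32 no member passed, while without CT16 2 rose and 3 fell. Atf4, the main factor of the integrated stress response, stood at 50.1, 59.1, 37.4 and 75.8 CPM against 34.3, 25.8, 25.6 and 24 CPM (log2 difference 1.02 ± 0.20, adjusted p = 0.0154), the one call among 18 genes of that response. Of 24 ribosome biogenesis genes Utp20 rose by 1.04 and Ncl by 0.60, with a median of 0.28. The call of Ncl was kept in 2 of 8 leave-one-out fits, and the list had 1 rise without CT32 and 5 without CT16. Hephl1 was the one call among 12 metal handling genes, and Irs2 and Sik1 were the 2 falls among 20 adipogenic and insulin signalling genes, neither of which passed without CT32.

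No member passed by edgeR in the lists for cytosolic ribosomal proteins (28 tested), the nuclear-encoded respiratory chain (31), autophagy and lysosome (25), branched-chain amino acid breakdown (21), NAD salvage (17), cell cycle (8) and cold-inducible RNA-binding proteins (2). Unadjusted p-values under 0.05 numbered 2, 4, 5, 3, 3, 3 and 0 there, beside 2610 of 11105 over all genes. DESeq2 made 1 call in the respiratory chain, 1 in NAD salvage and none in the other 5 lists, beside 938 of 11296 over all genes. Without CT16 members of 5 of these lists passed, 4 of the 31 in the respiratory chain, beside 1580 of 11267 over all genes. Without CT32 1 NAD salvage member rose and 1 cell cycle member fell. Of the 13 mitochondrially encoded genes mt-Co3 alone passed, with 0.324, 14.6, 809.7 and 268 CPM against 12.3, 2.31, 0.485 and 3.47 CPM, and it did not pass without CT32. Its groups overlapped and single libraries differed by orders of magnitude, and near-identical nuclear copies make counts of such genes uncertain.

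**Figure D3:**
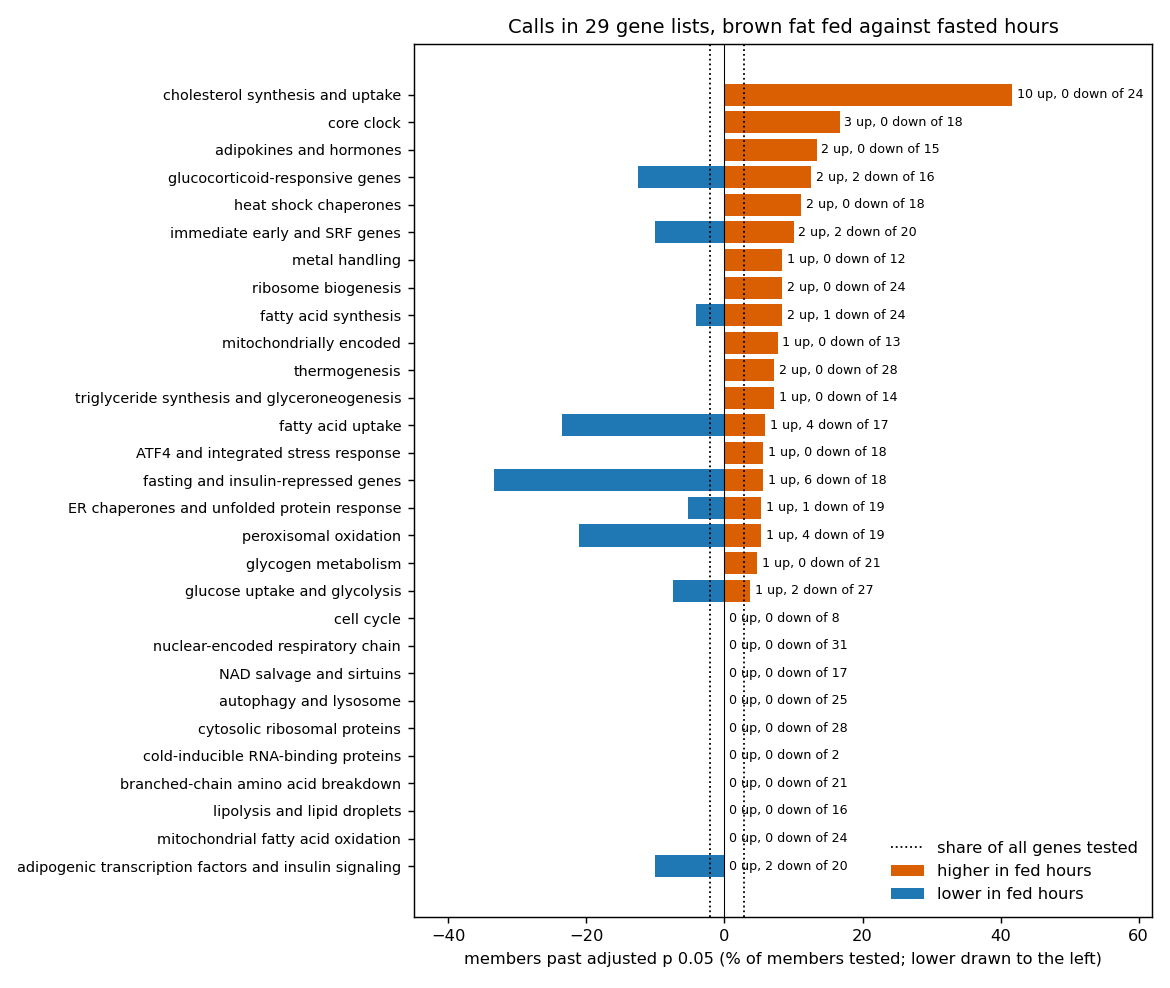
Share of tested members called higher (orange, to the right) or lower (blue, to the left) in the fed hours, in percent, for 29 gene lists, with dotted lines at the share of all genes tested. Cholesterol synthesis and uptake has the longest bar to the right with 10 of 24, and fasting and insulin-repressed genes the longest to the left with 6 of 18.

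Markers of other cell types were read over the same libraries. In bulk tissue, fewer cells of a type and less RNA per cell cannot be told apart. Summed levels of 9 endothelial markers were 275 to 364 CPM in fed and 327 to 530 CPM in fasted libraries, with 1 call among 9, Cldn5, and a median log2 difference of -0.53 (p = 0.114, exact permutation test, two-sided, n = 4 each). Macrophage markers summed to 26.4 to 39.4 and 27.2 to 72.2 CPM with none of 9 called by edgeR and a median of -0.83. Blood markers summed to 95.9 to 251 and 137 to 480.1 CPM, with 1 of 5 called, Alas2, and a median of -0.88. Smooth muscle and pericyte markers were 361 to 435 CPM in fed and 443 to 534 CPM in fasted libraries without overlap (p = 0.0286), with none of 6 called. Skeletal muscle markers ranged from 327 to 965 and from 175 to 1408 CPM, highest in CT16, and none of 14 was called. Fibroblast markers ranged from 255 to 343 and from 224 to 368 CPM and nerve markers from 103 to 126 and from 87.6 to 105 CPM, with no calls. The hepatocyte markers Fga, Fgb, Cyp3a11 and Ttr were at 0 in all 8 libraries, the hepatocyte list summed to 1.77 to 2.37 CPM in fed and 0.210 to 1.29 CPM in fasted libraries and the lymphocyte list to at most 3.87 CPM in any library, and no member of either reached the level for testing. Without CT16, 4 of 9 endothelial, 3 of 9 macrophage and 1 of 5 blood markers were called lower, and 2 of 14 skeletal muscle markers and 1 fibroblast marker higher, in the fed hours. Over all genes without CT16, 803 of 11267 were called higher and 777 lower. Without CT32 no member of these lists was called. The part of these shifts in the calls above was not tested.

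Within the fed hours, the hour after the window was compared with the hour inside it, with 2 libraries each. The hours are those of the labels. By clock genes CT04 and CT28, labelled hour 4, read 3 and 8 h, and CT08 and CT32, labelled hour 8, read 10 and 1.5 h. For CT28 and CT32 the readings thus ran in the reverse order of the labels. Hour 8 differed from hour 4 in 13 of 11596 genes (0.112%), 4 higher (0.0345%) and 9 lower (0.0776%). Prune2 stood at 46.2 and 26.6 CPM at hour 4 and 104 and 133 CPM at hour 8, and Tfrc, the transferrin receptor for iron uptake, at 23.3 and 16.4 and 64.9 and 69.1 CPM (adjusted p = 0.0221 for both). B4galt6, a glycolipid enzyme, and the positional factor Hoxc8 were also higher by 1.92 ± 0.30 and 1.47 ± 0.25 (log2 ± SE). Pck1 stood at 612 and 620.2 CPM inside the window and 240.3 and 217 CPM after it, and at 927, 1060.0, 923 and 1541 CPM in the fasted libraries, so that of these 8 libraries both of hour 8 were lowest (log2 difference -1.43 ± 0.24, adjusted p = 0.0455). Gmpr, an enzyme of purine conversion, went from 55.9 and 43.6 to 12.8 and 15 CPM, Slc25a42, the mitochondrial CoA carrier, from 71.2 and 85.1 to 33.2 and 22.8 CPM, and Vat1l and Syt11 fell by 2.01 ± 0.28 and 1.53 ± 0.25. Leaving out CT04, CT08, CT28 or CT32 left 4, 0, 0 and 0 calls. Leaving out CT16 or CT40 left 115 and 130. DESeq2 called 99 genes, all 13 among them. Where edgeR called 0, unadjusted p-values under 0.05 numbered 1120, 1284 and 991.

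Within the fasted hours, hour 20 differed from hour 16 in 1 gene (0.00862%). By clock genes CT16 and CT40, labelled hour 16, read 19 and 12.5 h, and CT20 and CT44, labelled hour 20, read 19.25 and 18 h. Mylk4, a kinase of the myosin light chain kinase family, stood at 11.1 and 11.6 CPM at hour 16 and 1.12 and 0.421 CPM at hour 20 (log2 difference -3.78 ± 0.37, adjusted p = 0.00124), while DESeq2 called 111 genes, Mylk4 not among them. Skeletal muscle markers summed to 1408 and 717 CPM at hour 16 and to 257 and 175 CPM at hour 20. The part of muscle content in the Mylk4 call was not tested. Leaving out CT04, CT16, CT20, CT28 or CT40 gave 22, 4, 7, 21 and 450 calls. Libraries outside both groups were read beside them. Lep stood at 41.3 CPM at CT12, 40.4 CPM at CT36 and 11.5 CPM at CT24, the last within the fasted range. Ehhadh reached 279.8 CPM at CT24, above all 8 libraries, and Pdk4 1219.9 CPM. CT00 was read on the deposited RPKM (a level per length of gene and depth of library), on which scale Ehhadh stood at 74.7 at CT00 and 64.3 at CT24, against 3.48, 2.86, 2.82 and 3.53 in the fed and 7.73, 19.1, 14.3 and 51.3 in the fasted libraries. Lep at CT00 was 0.114 RPKM, below the 2.12, 3.78, 2.95 and 2.67 RPKM of the fasted libraries. Per length, Ucp1 averaged 1013 RPKM in fed and 746 RPKM in fasted hours, Pnpla3 175 and 51.8 RPKM, and Pdk4 39.2 and 210.3 RPKM.

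The same clock hours were then set against AL brown fat, to set the feeding regimen beside the time of day. The fed minus fasted difference of CR-day differed from the day minus night difference of AL in 648 of 11514 genes tested for the interaction (5.63%), 352 upward (3.06%) and 296 downward (2.57%). Of the 540 genes called between fed and fasted hours, 252 were among them, 155 of the 310 risers and 97 of the 230 falls. Both tests hold the fed minus fasted difference of the same CR-day libraries, so this overlap is in part built in. In AL alone 763 genes differed between day and night hours (6.63%), 379 higher by day (3.29%) and 384 lower (3.34%). Of the 540, 26 were called in AL in the same direction and 56 in the opposite one, and 270 had an AL estimate of opposite sign. The share of opposite signs over all genes tested was not counted. AL mice differed from CR-day mice in amount of food as well as its timing, and regimen and library letter (A against B) cannot be told apart.

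Several genes reversed. Pnpla3 in AL stood at 278, 200.5, 299 and 300.4 CPM at the 4 day hours and 759, 1289, 903 and 833 CPM at the 4 night hours, so that its high and low hours were swapped between the regimens (difference of log2 differences 3.77 ± 0.29, adjusted p = 1.17e-06). Pdk4 stood at 838, 988, 763 and 835 CPM in AL day hours and 466, 268, 339 and 448 CPM in AL night hours, the reverse of CR-day (-3.37 ± 0.31, adjusted p = 5.63e-06). Hspa8 in AL had 220.0, 195, 264 and 157 CPM at day hours and 756, 752, 705 and 783 CPM at night hours. Ppp1r3b, Hyls1, Mid1ip1 and Bhlhe40 also changed sign between the regimens, with log2 differences of 1.34, 2.28, 1.40 and 1.31 in CR-day and -1.57, -1.98, -1.65 and -1.30 in AL. On the falling side Id1, an inhibitor of helix-loop-helix factors, Sgk1, Klf4, Cdc25a and Apold1, an endothelial early response gene, had -1.08, -1.12, -1.40, -1.80 and -1.40 in CR-day and 1.82, 1.90, 2.48, 1.18 and 3.14 in AL. All 12 had no overlap between day and night hours in AL.

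Leaders of the fed against fasted comparison were read in the same way. Lep differed by -1.89 ± 0.55 in AL (adjusted p = 0.0472), opposite to CR-day, and the interaction was 4.63 ± 0.79 (adjusted p = 0.00178). Angptl4 differed by 0.31 ± 0.33 in AL without passing (adjusted p = 0.607), and its interaction was -4.04 ± 0.50 (adjusted p = 1.46e-04). Cyp51 and Sc5d differed by 0.11 ± 0.22 and 0.09 ± 0.22 in AL, with interactions of 1.40 ± 0.31 and 1.48 ± 0.32 (adjusted p = 0.011 and 0.00963). In the cholesterol list 7 members were called in the interaction, all upward. Ppargc1a rose at the day hours in both regimens, by 0.90 ± 0.18 in CR-day and 0.94 ± 0.18 in AL (adjusted p = 0.00651), and Nav3 did likewise, with 2.02 ± 0.29 and 1.92 ± 0.29 (adjusted p = 0.00146). Their interactions were -0.03 ± 0.25 and 0.11 ± 0.41, which did not pass (adjusted p = 0.96 and 0.907).

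**Figure D4:**
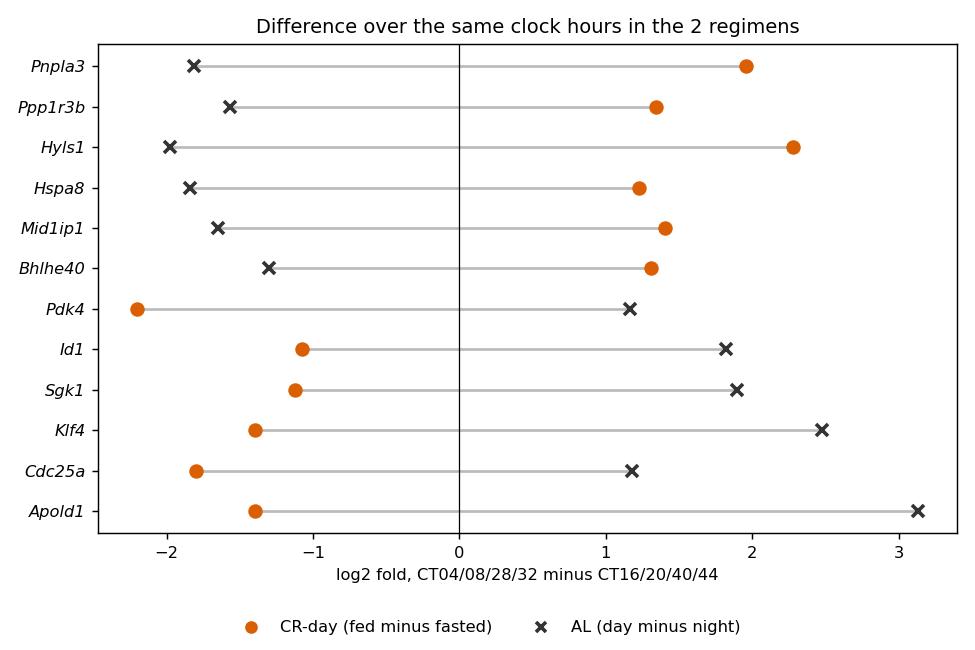
Log2 difference of CT04, CT08, CT28 and CT32 minus CT16, CT20, CT40 and CT44 in brown fat of CR-day (orange circles) and AL mice (crosses) for the 12 genes named from the interaction, joined by lines. For each gene the 2 regimens lie on opposite sides of 0, a pattern that choosing genes by the smallest p of the interaction favours.

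Liver of CR-day mice at the same hours (letter B, 8 libraries) were read last. Among them liver CT44 stood apart, with 133 genes more than 4-fold above and 41 more than 4-fold below all 7 others (the higher side at 5 CPM or more), against at most 2 genes either way for any other of the 8. In liver 76 of 12427 genes differed between fed and fasted hours (0.612%), 54 higher when fed (0.435%) and 22 lower (0.177%), and the brown fat difference differed from the liver difference in 19 genes (0.153%), 8 upward (0.0644%) and 11 downward (0.0885%). Of the 540 brown fat calls, 11 were also called in liver, all 11 in the same direction, and 11 were called in the tissue interaction. Pnpla3, Mid1ip1, Ppp1r3b, Angptl8 and Bhlhe40 rose in both tissues, with liver log2 differences of 3.42 ± 0.65, 1.99 ± 0.25, 2.06 ± 0.35, 2.44 ± 0.35 and 1.09 ± 0.20 (adjusted p = 0.0165, 9.58e-04, 0.00674, 0.00162 and 0.0113). Their tissue interactions did not pass (adjusted p = 0.592, 0.577, 0.633, 0.57 and 0.876). Pdk4 stood at 37.9, 38.1, 29.2 and 29.4 CPM in fed and 11.7, 12.5, 12.4 and 48 CPM in fasted liver, so the groups overlapped through CT44 alone, and the tissues differed in the interaction (-2.92 ± 0.53, adjusted p = 0.0445). The liver difference of Pdk4 was 0.68 and did not pass (adjusted p = 0.443). Without liver CT44 it was 1.42 ± 0.24 (adjusted p = 0.00602) and the interaction -3.63 ± 0.33 (adjusted p = 9.38e-06). With any other liver library left out, the liver difference of Pdk4 did not pass (adjusted p = 0.432 to 0.657). Without that library 90 genes were called in liver (0.720%), 52 higher and 38 lower, 56 of the 76 among them.

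The other genes named from the tissue interaction all had an adjusted p of 0.0445 as well. Dennd4a, Hyls1, Epb41l2, Yap1 and Pmepa1 rose in brown fat by 1.23, 2.26, 1.47, 1.24 and 1.73 and had liver differences of -0.47, -0.29, -0.23, -0.16 and -1.26. None of these liver differences passed (adjusted p = 0.228 to 0.767), and without liver CT44 they were -0.60, 0.01, 0.02, -0.21 and -0.58. Yap1 is the coactivator of the Hippo pathway and Epb41l2 a membrane skeleton protein. Aqp1, a water channel, Tspan4 and Pxdc1 had -1.45, -1.44 and -0.72 in brown fat and 0.51, 1.32 and 0.91 in liver, where none of them passed (adjusted p = 0.417, 0.125 and 0.0511). For Per2, Abhd6 and Rab11fip4 the brown fat values were near 0 (0.01, -0.03 and 0.13) and the liver values 2.22, 1.57 and -2.24. Per2 stood at 63.6, 35.6, 82.5 and 37 CPM in fed and 11, 14.3, 12.2 and 9.97 CPM in fasted liver. The count of 19 moved with the libraries used. Leaving out the brown fat library of CT16 left 5 calls, and leaving out CT04, CT08, CT20, CT28, CT32, CT40 or CT44 left 0, with 956 to 1117 genes at an unadjusted p under 0.05. Leaving out liver CT44 gave 26 calls, 17 of the 19 among them, with Per2 and Pxdc1 no longer called (adjusted p = 0.0616 for both). Leaving out another liver library gave 0 (CT20, with 1261 genes at an unadjusted p under 0.05) to 21 (CT08) calls. DESeq2 called 89 genes, and with liver letter A in place of letter B 637 genes passed, 17 of the 19 among them.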

How the data were processed

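Poly(A) RNA of brown fat and liver was sequenced, and reads were processed with FastQC, cutadapt, STAR and featureCounts, per the submitters' processing notes; versions and the genome build are not given in the sources used here. The authors deposited whole-number counts per gene, used for all tests, and RPKM values per gene, used for CT00 and for levels per length. The name CT44B occurred more than once in the brown fat CR-day count table. The first column of that name was used for the CT44 library, and a further one, which repeats a liver column, was left out (1 column).

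Genes passing edgeR's filterByExpr were tested with edgeR 4.0.16 (R 4.3.3) by its quasi-likelihood test after TMM scaling, with Benjamini-Hochberg adjustment over all genes tested and a threshold of 0.05. The fed against fasted fit held the 8 libraries and no covariate; the regimen and tissue interactions held 16 libraries each; the hour comparisons used the 8 libraries with a mean per clock hour. Single values per library were compared by exact permutation tests. DESeq2 1.42.0 was an alternative. Except for the hour comparison within the fasted hours, the comparisons were also run on simulated counts, drawn independently for each library. The outcome is not given here. Depth, 8446094 to 11607273 counts, covers counting error only, as reads carry no molecular identifiers.

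Named genes were the 12 largest rises and falls that passed, reached a mean of 5 CPM in the higher group and did not overlap, the 4 members of each list with the smallest p, the clock genes, Ucp1 and Lep, the 6 of each sign with the smallest p in each interaction and the 5 of each sign in each hour comparison. Genes named beyond this rule (Hmgcs1, Mvd, Hsd17b7, Insig1, Stard4, Slc27a4, Acaa1a and Alas2) were chosen after their values were seen. Some members of the lists are counted but not reported by name here. The members and the lists were chosen with earlier results of these data known. Gene coordinates came from GENCODE vM21 (mm10) where the versioned identifier matched, which it did for 18302 of 21869 genes, and promoters from RefSeq. Alternatives were another scaling, no filter on low counts, each library left out, sampling day as a block, a GC and length offset, mitochondrial transcripts left out, 16 libraries in the fit, liver letter A and, chosen after seeing the data, CT16 and CT32 both left out and each liver library left out.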

Additional observations from a re-analysis of the deposited data

Results flagged for a closer look

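In 11 of 206 groups of 4 libraries 1 library stood apart from the other 3 by Dixon's criterion, where chance gives about 1 in 20. In the fed hours these were CT04 for Lep (109.8 CPM) and Irs2 (7.66 CPM), CT08 for Yap1 (79.9 CPM), and CT32 for Cry2 (11.2 CPM) and Jun (17.8 CPM). In the fasted hours they were CT40 for Bhlhe41 (24.9 CPM), Pfkfb3 (339 CPM) and Pnpla3 (325 CPM), CT20 for Clmp (3.87 CPM), and CT16 for Clock (31.6 CPM) and for the share of reads on mitochondrial transcripts (66.2%).

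The fed minus fasted difference differed between CR-day and AL brown fat in 648 genes by edgeR's interaction test. The named genes with a difference of log2 differences above 0 were Pnpla3 (3.77), Ppp1r3b (2.91), Hyls1 (4.26), Hspa8 (3.07), Mid1ip1 (3.05) and Bhlhe40 (2.61). Those below 0 were Pdk4 (-3.37), Id1 (-2.90), Sgk1 (-3.02), Klf4 (-3.88), Cdc25a (-2.98) and Apold1 (-4.54).

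Between brown fat and liver of CR-day mice the difference differed in 19 genes by the same test. The named genes above 0 were Dennd4a (1.70), Rab11fip4 (2.37), Hyls1 (2.54), Epb41l2 (1.70), Yap1 (1.40) and Pmepa1 (2.99). Those below 0 were Abhd6 (-1.60), Pdk4 (-2.92), Aqp1 (-1.96), Tspan4 (-2.76), Per2 (-2.20) and Pxdc1 (-1.63).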

How the results depend on the processing

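None of the 540 fed against fasted calls changed sign under any alternative run, but their number did change. It was 536 with DESeq2's size factors, 938 with DESeq2, 688 with no filter on low counts, 552 without mitochondrial transcripts, 409 with a GC and length offset, 357 with sampling day as a block, 1125 with 16 libraries in the fit and 1028 without CT16 and CT32. Leaving out single libraries gave 158 (without CT08) to 1580 (without CT16). The regimen interaction stayed within 1.5 times its 648 genes in every alternative, from 451 to 910. The tissue interaction (19 genes) gave 89 with DESeq2, 637 with liver letter A and 0 to 5 with a brown fat and 0 to 26 with a liver library left out. The hour comparison within the fed hours (13) gave 99 with DESeq2 and 0 to 130 with a library left out, and that within the fasted hours (1) gave 111 with DESeq2 and 1 to 450. For genes with estimates near 0, none called in either setting, the log2 difference of fed minus fasted changed sign. Leaving out single libraries moved it from -0.0904 to 0.15 for Abhd6, from -0.45 to 0.90 for Ciart, from -0.24 to 0.31 for Cry1, from -0.19 to 0.21 for Cry2, from -0.71 to 0.0493 for Dbp, from -0.34 to 0.63 for Mylk4, from -0.18 to 0.19 for Per2, from -0.00280 to 0.27 for Rab11fip4 and from -0.13 to 0.42 for Syt11. With DESeq2 it was 7.91e-04 for Abhd6. With no filter on low counts it was 0.00331 for Abhd6. With sampling day as a block it was 0.0735 for Ciart and 0.00184 for Cry1. With the GC and length offset it was 0.0796 for Ciart, -0.0317 for Clock, 0.0591 for Cry1, 0.0389 for Dbp, -0.0455 for Mylk4 and -0.0630 for Rora. Without CT16 and CT32 it was 0.13 for Abhd6, 0.0538 for Ciart, 0.11 for Cry1 and -0.0776 for Cry2. Over the named genes and alternatives, 2216 values kept direction and side of the threshold, 184 lost the call, 132 gained it and 40 changed sign. The causes were not tested. No paired analysis was possible because each library is a different mouse and no label ties a mouse of the fed hours to one of the fasted hours. Each hour comparison rests on a pair of libraries a side, and leaving 1 out assumes that the remaining one varies like the others. Genes below the filter, Npas2 among them, were not tested at this depth.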
